A study of Mus musculus with 4 samples.

Results

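The genes described here run from the insulin receptor through its adaptors and PI3 kinase to AKT and the proteins AKT phosphorylates, among them the FOXO transcription factors. The 30 members were listed by name, and a probe was taken as a member's when its symbol in the platform's gene table matched, ignoring case. The array named a probe for 29 of the 30, with 34 probes in all, of 17734 genes measured. Akt2 was the member not analysed here.

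Insulin binding activates the receptor's tyrosine kinase, which phosphorylates docking proteins such as IRS1, IRS2 and GAB1. These recruit PI3 kinase, whose lipid product brings PDK1 and AKT to the membrane, where AKT is switched on. Active AKT inhibits glycogen synthase kinase 3, keeps FOXO factors out of the nucleus and phosphorylates TBC1D4, which releases glucose transporter vesicles in fat and muscle. A parallel branch through SHC1, GRB2 and SOS activates Ras. In preadipocytes this pathway is one of the signals that drive fat cell formation, and insulin is part of the induction mixture. AKT, FOXO and most members are regulated by phosphorylation and location, which a transcript array does not read.

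All 4 samples were 3T3-L1 cells, an established mouse preadipocyte line, kept for 48 hours in the induction mixture of 1 µg/ml insulin, 1 µM dexamethasone and 0.5 mM isobutylmethylxanthine. The 2 control samples had this mixture alone, and the 2 berberine samples also had 13.47 µM of the plant alkaloid berberine, so both groups were exposed to insulin. This grouping rests on the sample titles, source names and descriptions, because the treatment protocol has the same text for all 4 samples and names berberine for the controls too. The comparison asks how transcript levels differed between induction with and without berberine. Whether the samples of a group came from separate cultures is not stated, and each p-value below covers the spread from array to array, possibly technical, and no more. Each sample was read on 1 Cy5 array.

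Median deposited intensities were 350 to 423 on control and 237 to 280 on berberine arrays, and arrays were put on one scale by quantile normalization. Levels below are log2 of that normalized intensity, and changes are berberine minus control on the log2 scale, given with limma's standard error (SE). A gene was called when limma's p, adjusted over all 26408 probes fitted, was under 0.05. Of the preadipocyte and fibroblast markers 8 of 10 were measured. At their brightest probes 4 were called lower (Lum 8.41-fold, Dcn 7.84-fold, Dlk1 3.09-fold, Pdgfra 1.99-fold). Another 3 were called higher (Col1a1 2.81-fold, Pdgfrb 2.06-fold, Col1a2 1.51-fold), and Vim did not pass. The dimmer Dcn probe was also called lower, and the dimmer Dlk1 probe did not pass (-0.20, adjusted p = 0.355). The summed normalized intensity of the 8 markers was 389069 to 417821 in control and 283918 to 287111 with berberine. Of 10 adipocyte markers 8 were called lower, and the sum was 627187 to 645903 in control and 40931 to 42982 with berberine. The other 2, Lpl and Pparg, lay under the 25th percentile of all probes in both groups, so that no fold is given, although Pparg was called higher there (levels of 5.12 and 4.75 in control, 5.50 and 5.72 with berberine). The labels call all cells preadipocytes, although both sets of markers differed between the groups. Their part in the changes below was not tested, and in such bulk samples fewer cells of a type and less RNA per cell cannot be told apart. Markers of other cell types had much lower summed intensities. At their brightest probes only 1, the macrophage marker Adgre1, lay under the 25th percentile of all probes in both groups. The sum was 1032 to 1209 in control and 1077 to 1157 with berberine for 5 macrophage markers (1 higher, 1 lower). For 4 endothelial markers (2 higher) it was 792 to 849 and 1157 to 1236, and for 4 epithelial markers (1 lower) 2114 to 2383 and 1990 to 2002. The brightest of them was the epithelial marker Krt14, at 10.45 and 10.67 in control and 10.61 and 10.60 with berberine, which did not pass. The part of these other cell types was not tested either.

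With berberine, Akt1, Irs1, Gab1, Tbc1d4, Pik3r1 and Cbl were lower, and Pik3cd, Grb14, Pik3cb, Sos1, Pik3ca, Sos2, Tbc1d1, Foxo1 and Ptpn1 were higher. Counted by each gene's brightest probe, 9 of 29 members (31.0%) were called higher, against 30.0% of all genes measured, and 6 (20.7%) were called lower, against 18.2%. Both shares lay near those of all genes, so the number of calls is not a result about these genes. Changes of at least 2-fold were called higher at 7 members (24.1%, against 12.9% of all genes) and lower at 5 (17.2%, against 11.5%). These 2-fold shares lay above those of all genes, and the difference was not tested. Both berberine arrays lay above both controls at 14 of 29 members, against 49.2% of all genes, and below them at 8, against 28.3%. The median change was 0.25 for members and 0.20 for all genes. The members' changes ran from -2.59 to 2.29, a 6.01-fold fall to a 4.90-fold rise.

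**Figure D1:**
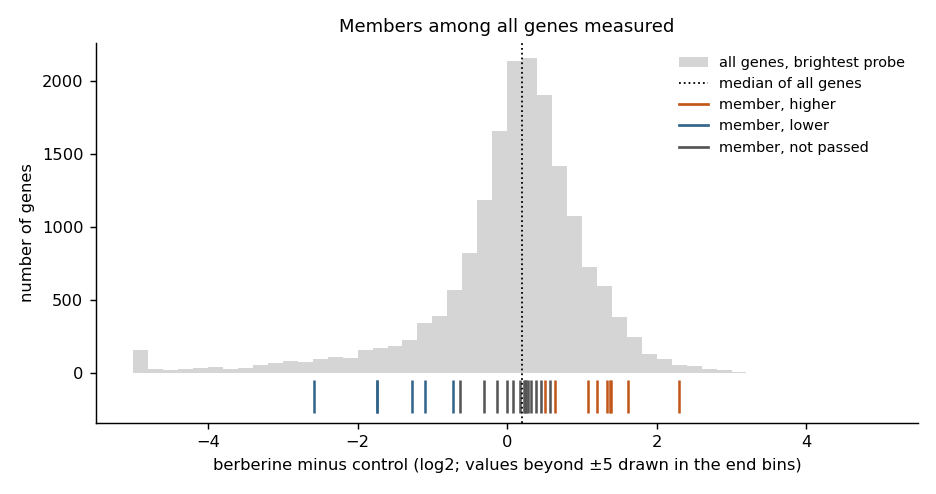
Number of genes (vertical axis) by change, berberine minus control on the log2 scale (horizontal axis), for the brightest probe of each of 17734 genes in grey, with the 29 measured members as ticks under the bars. Called falls are blue, called rises orange and the rest dark grey; members spread from -2.59 to 2.29 on both sides of the all-gene median of 0.20 (dotted line).

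The start regions of 3 members with clear calls (Akt1 and Irs1 lower, Grb14 higher) and of Ptpn11 are shown because the transcripts moved in different directions and because Akt1 and Ptpn11 are the members with a searched motif. The windows run from 250 bases before to 50 bases after an annotated start and come from RefSeq on build GRCm38.p6, where 29 of the 30 members had at least 1 window and 45 windows were found; Insr had none. Akt1 has a pair of windows, of which the one with the motif is printed. Capitals mark the FOXO motif GTAAACA, read as its reverse complement TGTTTAC in Akt1, and the cyclic AMP response motif TGACGTCA in Ptpn11, all printed 5′ to 3′ on the gene's strand.
Akt1, chr12:112674835-112675134, minus strand: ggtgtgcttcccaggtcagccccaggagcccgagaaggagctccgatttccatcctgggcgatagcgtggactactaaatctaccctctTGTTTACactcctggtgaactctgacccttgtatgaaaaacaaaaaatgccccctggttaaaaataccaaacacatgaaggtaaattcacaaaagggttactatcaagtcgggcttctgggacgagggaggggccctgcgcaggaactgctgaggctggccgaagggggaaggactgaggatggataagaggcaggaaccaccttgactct
Irs1, chr1:82291390-82291689, minus strand: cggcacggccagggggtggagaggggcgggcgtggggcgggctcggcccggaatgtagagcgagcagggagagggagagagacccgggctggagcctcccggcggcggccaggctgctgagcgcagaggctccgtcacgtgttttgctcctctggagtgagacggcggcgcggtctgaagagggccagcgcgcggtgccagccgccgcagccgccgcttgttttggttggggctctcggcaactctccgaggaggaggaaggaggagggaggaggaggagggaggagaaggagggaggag
Grb14, chr2:65022717-65023016, minus strand: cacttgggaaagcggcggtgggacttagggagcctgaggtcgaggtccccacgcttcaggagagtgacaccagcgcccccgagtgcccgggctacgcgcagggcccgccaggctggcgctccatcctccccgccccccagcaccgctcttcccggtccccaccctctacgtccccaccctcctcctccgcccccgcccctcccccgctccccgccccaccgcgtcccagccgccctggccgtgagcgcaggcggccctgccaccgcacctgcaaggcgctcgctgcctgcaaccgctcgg
Ptpn11, chr5:121191348-121191647, minus strand: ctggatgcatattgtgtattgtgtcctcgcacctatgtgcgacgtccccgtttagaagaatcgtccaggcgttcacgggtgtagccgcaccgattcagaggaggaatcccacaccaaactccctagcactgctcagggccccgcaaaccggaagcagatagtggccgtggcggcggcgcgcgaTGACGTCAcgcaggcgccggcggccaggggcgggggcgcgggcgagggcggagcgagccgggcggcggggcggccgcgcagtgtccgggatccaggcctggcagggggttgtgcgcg

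The FOXO motif, searched on both strands, was in 1 of 45 member windows (2.22%), against 3.65% of all 32851 windows of this length. The cyclic AMP response motif was in 1 member window (2.22%), against 1.79% of all, and the C/EBP motif TTGCGCAA was in 0 member windows, against 0.183% of all. The motifs do not overlap one another in these windows. Member windows were rich in G and C, with a median of 63.0% and 25 CG pairs, against 52.7% and 7 in all windows. A match is only a match of letters, and a window without one says nothing of whether a factor binds.

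At the head of the pathway the receptor and IRS2 transcripts did not pass, while those of IRS1 and GAB1 fell. Insr, the receptor, was at 12.86 and 12.64 in control and 12.52 and 12.36 with berberine, a change of -0.31 (SE 0.15, adjusted p = 0.145) whose 95% interval runs from -0.69 to 0.066. Both berberine arrays lay just below both controls, and the sign turned to 0.34 when arrays were centred on the median and to 0.080 when scaled on the 75th percentile. Irs2, the docking protein that is itself a known FOXO target, was at 11.67 and 11.90 in control and 11.71 and 11.60 with berberine. Its groups overlapped, and the change of -0.13 (interval -0.50 to 0.24, adjusted p = 0.486) also turned sign under both of those scalings, to 0.29 and 0.029.

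Irs1, the other main docking protein of the receptor, was at 13.25 and 12.85 in control and 11.29 and 11.31 with berberine. The groups were far apart, and Irs1 fell 3.35-fold (change -1.74, SE 0.17, adjusted p = 0.00175). Gab1, a docking protein for PI3 kinase and the phosphatase SHP2, was at 11.31 and 10.77 in control and 9.04 and 9.55 with berberine. It fell 3.35-fold as well (change -1.75, SE 0.26, adjusted p = 0.00613), with a wider spread inside each group. The Irs1 call was just missed without berberine replicate 1 (change -1.66, adjusted p = 0.0507) or 2 (-1.69, 0.0562), and so was that of Gab1 (-1.44, 0.0755 and -1.96, 0.0578).

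**Figure D2:**
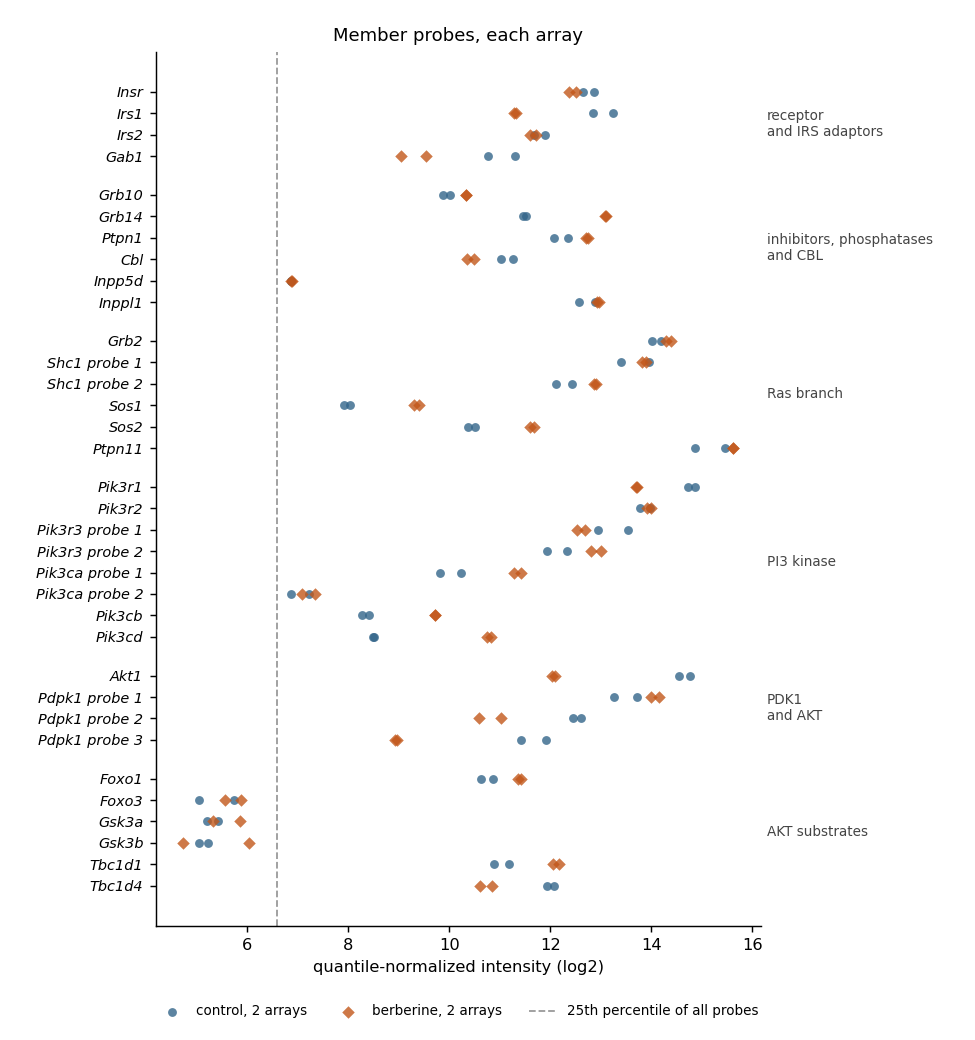
Quantile-normalized log2 intensity (horizontal axis) of each of the 34 member probes (rows, grouped by role), with 2 control arrays as blue circles and 2 berberine arrays as orange diamonds. The groups stand clear of each other at Akt1, Irs1, Grb14 and Pik3cd, while Foxo3, Gsk3a and Gsk3b lie left of the dashed line, the 25th percentile of all probes.

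Among proteins that bind, dephosphorylate or restrain the upper pathway, Grb14 and Ptpn1 rose and Cbl fell, out of 6 measured. Grb14, an adaptor that inhibits the receptor's kinase, was at 11.52 and 11.46 in control and 13.11 and 13.09 with berberine. Each group was tight, and Grb14 rose 3.05-fold (change 1.61, SE 0.12, adjusted p = 0.000742), a call kept without any 1 array. Its relative Grb10, also an inhibitor of the receptor, was at 9.88 and 10.02 in control and 10.33 on both berberine arrays. The change was 0.38 (adjusted p = 0.0616). It was called without control replicate 2 (0.47, adjusted p = 0.0482) and with dim probes left out (0.0467), and it was -0.16 in the deposited values, so its direction is unsettled. Ptpn1, the phosphatase PTP1B that switches the receptor off, was at 12.35 and 12.08 in control and 12.70 and 12.75 with berberine, a 1.42-fold rise (change 0.51, adjusted p = 0.0431). This small rise was not called without berberine replicate 1 (0.51, adjusted p = 0.187), berberine replicate 2 (0.47, 0.212) or control replicate 2 (0.38, 0.0708), nor in the deposited values (0.55, 0.215). It was larger after 75th percentile scaling (0.86, adjusted p = 0.0179) and after centring (1.12, 0.00807).

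Cbl, an adaptor and ubiquitin ligase recruited to the receptor, was at 11.26 and 11.03 in control and 10.50 and 10.35 with berberine, a 1.65-fold fall (change -0.72, SE 0.15, adjusted p = 0.0148). The groups were apart, but the call was lost without berberine replicate 1 (-0.76, adjusted p = 0.0955) or 2 (-0.62, 0.132) and after centring (-0.56, 0.0598). In the deposited values the change was -1.13 (adjusted p = 0.0231). The lipid phosphatases SHIP1 and SHIP2, which remove a phosphate from the PI3 kinase product, did not pass. Inpp5d (SHIP1), at 6.86 to 6.88 on all arrays, sat just above the 25th percentile of probes (6.58), with no difference between groups visible (interval -0.30 to 0.31). Inppl1 (SHIP2) was at 12.88 and 12.57 in control and 12.93 and 12.97 with berberine, a change of 0.22 (adjusted p = 0.297) that was called after centring (0.90, 0.0176).

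In the Ras branch both SOS genes rose, and the adaptors and phosphatase before them did not pass at their brightest probes. Sos1, an exchange factor that loads Ras with GTP, was at 8.04 and 7.91 in control and 9.30 and 9.41 with berberine, a 2.60-fold rise (change 1.38, SE 0.13, adjusted p = 0.00143). Its paralog Sos2 was at 10.38 and 10.51 in control and 11.60 and 11.68 with berberine, a 2.30-fold rise (change 1.20, SE 0.13, adjusted p = 0.00207). No berberine array of either gene reached down to a control array. The Sos2 call was missed without berberine replicate 2 (1.11, adjusted p = 0.0561), and the Sos1 call in the deposited values (0.79, adjusted p = 0.0657).

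Grb2, the adaptor that carries SOS, was at 14.02 and 14.19 in control and 14.40 and 14.29 with berberine, a change of 0.24 (adjusted p = 0.213). It was called higher after 75th percentile scaling (0.74, adjusted p = 0.0326) and after centring (1.00, 0.00699). Ptpn11, the phosphatase SHP2 that supports Ras activation, was at 15.47 and 14.87 in control and 15.62 and 15.61 with berberine, a change of 0.45 (adjusted p = 0.168). The control arrays of Ptpn11 differed by more than the groups did, and without control replicate 1 the change was 0.75 and was called (adjusted p = 0.0220). It was also called after 75th percentile scaling (0.98, adjusted p = 0.0239) and after centring (1.24, 0.0171). Shc1, an adaptor phosphorylated by the receptor, has a pair of probes. The brighter was at 13.96 and 13.40 in control and 13.81 and 13.90 with berberine, with overlapping groups (change 0.18, adjusted p = 0.543). It was -0.10 without control replicate 2 (adjusted p = 0.460) and was called higher after centring (0.90, 0.0349). The dimmer was at 12.12 and 12.43 in control and 12.87 and 12.91 with berberine (change 0.61, adjusted p = 0.0297), and was not called without berberine replicate 1 (0.62, adjusted p = 0.157) or 2 (0.57, 0.179) or in the deposited values (0.68, 0.0804). Its change was 0.98 (adjusted p = 0.0126) after 75th percentile scaling and 1.24 (0.00316) after centring.

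PI3 kinase transcripts moved in different directions by subunit: the 3 catalytic genes rose and the main regulatory gene Pik3r1 fell. Pik3cd, the catalytic subunit p110 delta best known from white blood cells, was at 8.49 and 8.51 in control and 10.75 and 10.83 with berberine. This was the largest rise among members, 4.90-fold (change 2.29, SE 0.12, adjusted p = 0.000295), and it was called under every alternative run. Pik3cb, p110 beta, was at 8.41 and 8.27 in control and 9.72 on both berberine arrays, a 2.61-fold rise (change 1.38, SE 0.13, adjusted p = 0.00132). In the deposited values its change of 0.79 was not called (adjusted p = 0.0642).

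Pik3ca, p110 alpha, the catalytic subunit central to insulin action, was at 10.23 and 9.82 in control and 11.28 and 11.43 with berberine at its brighter probe, a 2.52-fold rise (change 1.33, SE 0.18, adjusted p = 0.00451). The dimmer probe was at 6.87 and 7.23 in control and 7.09 and 7.34 with berberine, with overlapping groups (change 0.17, adjusted p = 0.495). The rise thus rests on 1 of the gene's probes, and it was not called without berberine replicate 1 (1.35, adjusted p = 0.0657) or 2 (1.21, 0.0820) or in the deposited values (0.91, 0.0737).

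Pik3r1, which encodes the p85 alpha regulatory subunit, was at 14.73 and 14.87 in control and 13.71 and 13.70 with berberine. It fell 2.14-fold (change -1.10, SE 0.13, adjusted p = 0.00261). The fall was -0.60 (adjusted p = 0.0553) after scaling on the 75th percentile and -0.35 (0.0945) after centring, and -1.10 (0.0529) and -1.08 (0.0590) without berberine replicate 1 or 2. Pik3r2, p85 beta, was at 13.77 and 13.98 in control and 13.91 and 14.00 with berberine, a change of 0.077 with overlapping groups (interval -0.28 to 0.43, adjusted p = 0.682). It was 0.55 (adjusted p = 0.0806) after 75th percentile scaling and 0.81 after centring, where it was called higher (0.00965). The difference between the Pik3r1 and Pik3r2 changes was not tested.

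Pik3r3, the p55 gamma regulatory subunit, has a pair of probes that went opposite ways. The brighter was at 12.95 and 13.55 in control and 12.54 and 12.69 with berberine (change -0.64, adjusted p = 0.0788), and was called lower without control replicate 1 (-0.95, adjusted p = 0.0269) and under the replicate block (0.0144). The other was at 12.32 and 11.94 in control and 13.00 and 12.81 with berberine (change 0.77, adjusted p = 0.0235), and lost its call without control replicate 2 (0.59, adjusted p = 0.0731), berberine replicate 1 (0.65, 0.170) or berberine replicate 2 (0.85, 0.119) and in the deposited values (0.82, 0.0911), while after centring it was 1.38 (0.00825). The replicate block gave all member probes nearly the same SE, so its call says little of this probe pair's own spread. No direction can be given for Pik3r3.

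**Figure D3:**
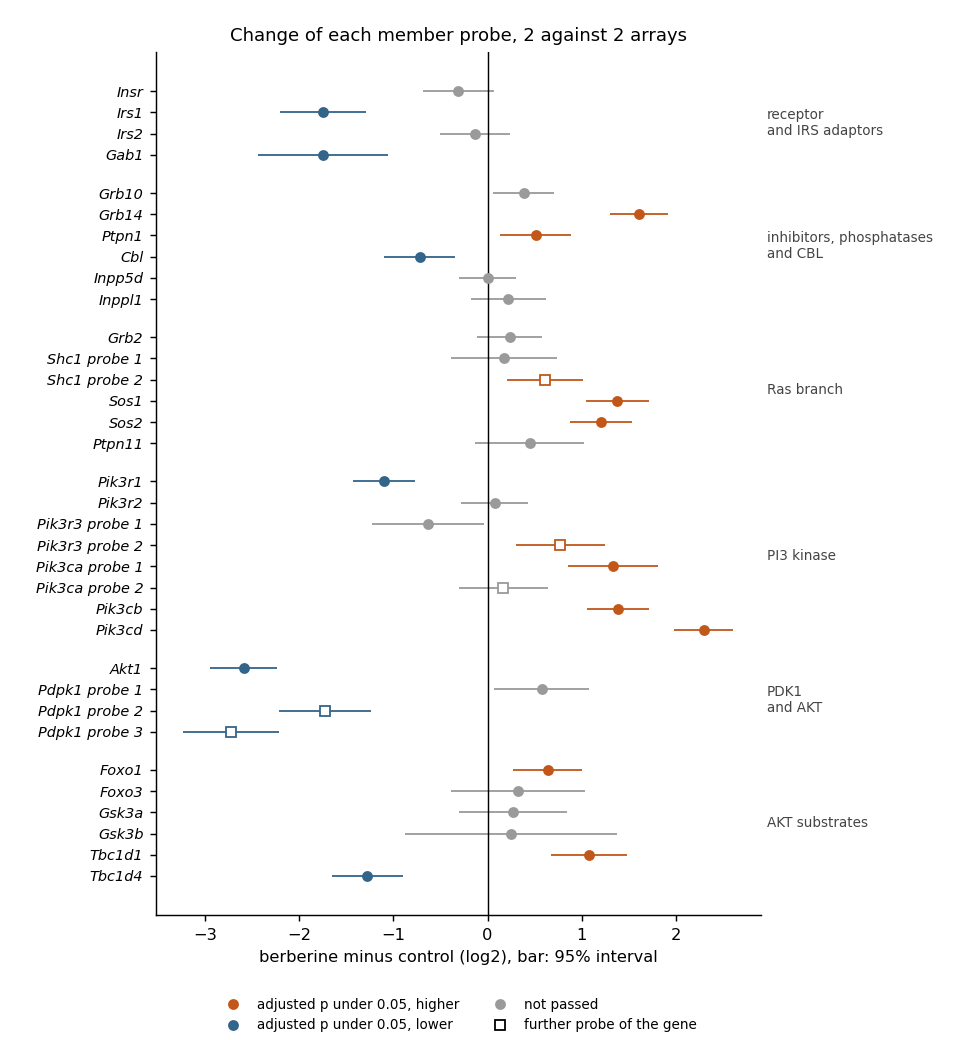
Change of each member probe, berberine minus control on the log2 scale (horizontal axis), with 95% intervals from limma and rows grouped by role. Filled circles are brightest probes and open squares further probes of the same gene; Akt1, Irs1 and Gab1 lie furthest left among circles, Pik3cd and Grb14 furthest right, and the 3 Pdpk1 probes lie on both sides of 0.

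AKT1 and its activating kinase come next. Akt1, the AKT isoform present in most tissues, was at 14.76 and 14.55 in control and 12.04 and 12.10 with berberine. The arrays of each group were close and the groups more than 2 units apart: Akt1 fell 6.01-fold (change -2.59, SE 0.14, adjusted p = 0.000306), the largest fall among members' brightest probes. It kept its call without any 1 array and under all 4 scalings, with the smallest fall, -1.94, after centring. The gene has 1 named probe, so no other probe bears on this value.

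Pdpk1, the kinase PDK1 that phosphorylates AKT, has 3 probes that disagree. The brightest was at 13.72 and 13.26 in control and 13.99 and 14.14 with berberine, which gave 0.58 (adjusted p = 0.0665). It was called higher after 75th percentile scaling (1.04, adjusted p = 0.0144), after centring (1.30, 0.00988) and without control replicate 1 (0.82, 0.0326), and at the same 0.58 under the replicate block (0.0291) and with an intensity trend and robust prior (0.0468). The replicate block gave all member probes nearly the same SE, which limits that call. The next probe was at 12.61 and 12.45 in control and 10.59 and 11.03 with berberine, a 3.30-fold fall (change -1.72, SE 0.19, adjusted p = 0.00231). The dimmest was at 11.91 and 11.42 in control and 8.92 and 8.97 with berberine, a 6.58-fold fall (change -2.72, SE 0.20, adjusted p = 0.000695). So 2 of the 3 probes were called lower while the brightest lay higher, and with the probes averaged the gene was lower by 1.29, as a change of -1.29 (adjusted p = 0.00333). The part of the transcript each probe reads is not given in the sources used here.

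Of the AKT substrates, Foxo1 and Tbc1d1 rose and Tbc1d4 fell. Foxo1, the FOXO factor that holds back adipocyte differentiation until insulin signalling removes it from the nucleus, was at 10.86 and 10.63 in control and 11.41 and 11.35 with berberine. The rise was 1.56-fold (change 0.64, SE 0.14, adjusted p = 0.0194). It was 0.30 in the deposited values (adjusted p = 0.497) and 0.60 after scaling on the 75th percentile (0.0543), and the call was lost without berberine replicate 1 (0.58, 0.146) or 2 (0.64, 0.127).

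Tbc1d4, the protein AS160 that restrains glucose transporter vesicles until AKT phosphorylates it, was at 11.94 and 12.08 in control and 10.62 and 10.85 with berberine. It fell 2.42-fold (change -1.27, SE 0.15, adjusted p = 0.00260). Its paralog Tbc1d1, better known from muscle, was at 11.18 and 10.88 in control and 12.17 and 12.05 with berberine, a 2.11-fold rise (change 1.08, SE 0.16, adjusted p = 0.00531). The paralogs' groups were apart in opposite directions, and the signs held under all 4 scalings, although the difference between the paralogs was not itself tested. Calls were missed without berberine replicate 1 for Tbc1d4 (-1.10, adjusted p = 0.0520) and without berberine replicate 1 (0.97, 0.0802) or 2 (1.08, 0.0751) for Tbc1d1, which was also not called in the deposited values (0.88, 0.0651).

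Foxo3, another FOXO factor, and the kinase genes Gsk3a and Gsk3b lay below the 25th percentile of all probes in both groups, with levels of 4.74 to 6.03 over all arrays. For Gsk3b the 2 berberine arrays, at 6.03 and 4.74, differed by more than the group means did. These probes give no fold, and whether the transcripts differed was not detectable at this signal. After centring, Gsk3a (0.97, adjusted p = 0.00869) and Gsk3b (1.08, 0.0362) were among the calls.

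**Figure D4:**
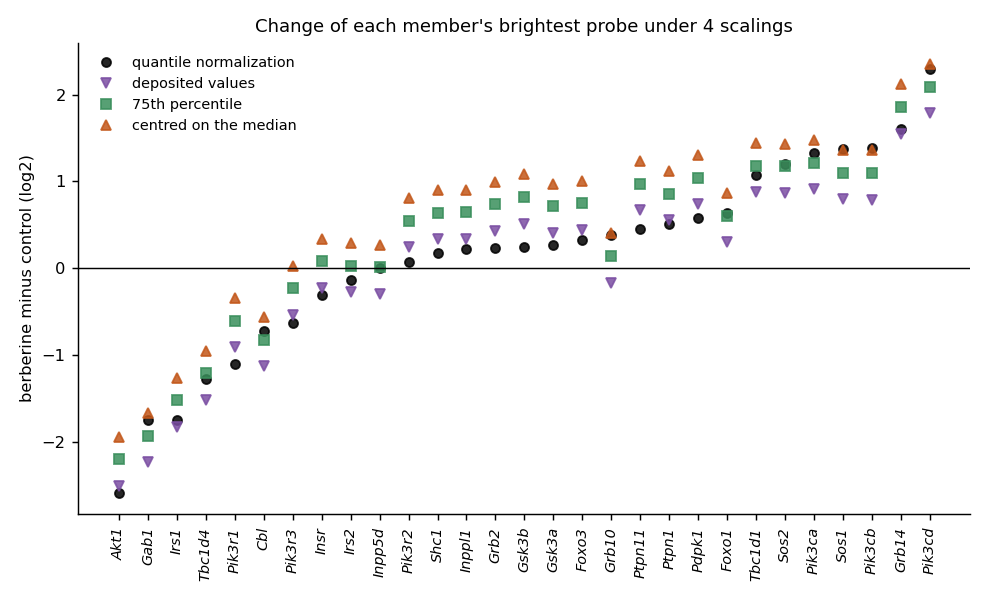
Change of each member's brightest probe, berberine minus control on the log2 scale (vertical axis), under quantile normalization (circles), the deposited values (triangles down), scaling on the 75th percentile (squares) and centring on the median (triangles up). Genes are ordered by the first; Akt1, Gab1, Irs1, Tbc1d4, Pik3r1 and Cbl stay below 0 under all 4, Pik3cd and Grb14 stay highest, and Insr, Irs2, Pik3r3, Inpp5d and Grb10 cross 0.

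Calls of middling changes, and the directions of some members not called, depended on the scaling, which also moved all genes together. All genes had a median change of 0.20 with quantile normalization, -0.018 as deposited, 0.29 with 75th percentile scaling and 0.55 with centring, and for the members these medians were 0.25, 0.34, 0.64 and 0.90. In the deposited values 3 members were called higher (11.2% of all genes) and 6 lower (16.7%). After scaling on the 75th percentile 11 were higher (25.1%) and 5 lower (14.4%), and after centring 17 were higher (44.3%) and 4 lower (12.8%). Of the 15 calls, 9 were kept in the deposited values and 13 under each of the other scalings, and 0 turned sign. With only 1 berberine array the pooled spread came from the control pair, whose bright probes differed by a median of 0.26 against 0.088 for the berberine pair. Then 6 of the 15 calls were kept without either array. Akt1, Pik3cb, Pik3cd, Grb14 and Sos1 were called without replicate 1 and without replicate 2.

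Neighbouring genes of the pathway outside the member list moved both ways as well. Of 43 listed, 39 were measured, and 13 were called higher (33.3%, against 30.0% of all genes) and 8 lower (20.5%, against 18.2%). Both shares lay near those of all genes, so the counts are not a result about these neighbours. After centring 21 were higher, where 44.3% of all genes were. The largest fall was at Sh2b2, the adaptor APS that links the receptor to CBL, at 10.66 and 10.57 in control and 6.03 and 6.44 with berberine, at least 16.4-fold against the 25th percentile level (change -4.38, adjusted p = 0.000156). Its relative Sh2b1, an enhancer of receptor signalling, fell 5.15-fold, and 4.65-fold at its other probe. Bad, a pro-death protein that AKT inhibits, fell 9.22-fold, from 13.62 and 13.73 to 10.56 and 10.38. Crkl, an adaptor of the CRK family, fell 3.42-fold.

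Among neighbours that rose, Cblb, a ubiquitin ligase related to CBL, rose 4.06-fold, from 11.14 and 11.60 to 13.42 and 13.36. Rapgef1, an exchange factor that CRK proteins bind, rose 3.26-fold and Phlpp1, a phosphatase of AKT, 2.98-fold, and Ptpre, a receptor-type tyrosine phosphatase, rose at least 2.95-fold from below the 25th percentile. Rapgef1 was not called without berberine replicate 1 (1.59, adjusted p = 0.0858) or 2 (1.73, 0.0830), and neither was Phlpp1 (1.47, 0.0695 and 1.54, 0.0738). The Sh2b1 call was missed without berberine replicate 2 (-2.18, 0.0615). Without berberine replicate 1 or 2, fewer neighbours were called each way, as were fewer of all genes.

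Genes known elsewhere as FOXO targets were also read: all 22 were measured, with 6 higher (27.3%, against 30.0% of all genes) and 8 lower (36.4%, against 18.2%). The share called lower lay above that of all genes, and the difference was not tested. After centring 3 of the 22 were lower, where 12.8% of all genes were. Pnpla2, the lipase ATGL, fell 14.1-fold (4.19-fold at its dimmer probe), Pck1, an enzyme of glyceride and glucose synthesis, at least 5.43-fold, Klf15, a transcription factor of late adipogenesis, 6.92-fold, and Ccng2, a cyclin, 2.43-fold. Ccn2, a matrix-associated growth factor, rose 5.55-fold, Trib1, a pseudokinase, 3.53-fold, Cdkn1b, the cell cycle inhibitor p27, 2.30-fold and Cited2, a transcriptional coregulator, 2.05-fold. The dimmer Cited2 probe did not pass (0.52, adjusted p = 0.156), and the dimmer Trib1 probe rose at least 1.30-fold. Cdkn1b was not called in the deposited values (0.79, adjusted p = 0.113), nor was Ccng2 after centring (-0.57, 0.0511). Pnpla2, Pck1 and Klf15 are also genes of the differentiated adipocyte, whose markers moved with the groups as given above, and the part of that in these falls was not tested. Without berberine replicate 1 or 2, fewer targets were called each way, as were fewer of all genes. Ccng2 was then not called (-1.12, adjusted p = 0.0822 and -1.41, 0.0678), nor were Cdkn1b (1.20, 0.0832 and 1.11, 0.0976) and Cited2 (1.16, 0.0785 and 0.91, 0.115). Cited2 was also missed without control replicate 2 (0.83, 0.0586).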

How the data were processed

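RNA was labelled with Cy5 and read on 1-colour arrays, per the labels' protocols. The authors deposited linear probe intensities in whole numbers, and neither scanner nor background correction nor scaling is stated in the sources used here; what a value of 0 stands for is unknown. Of 26423 probes, 20377 had 1 gene symbol, 0 several and 6046 were unnamed here; symbols came from the platform's table, updated through RefSeq names. Before the fit, 15 probes with a value of 0 or less were removed. Log2 intensities (no pseudocount) were quantile normalized and fitted in limma 3.58.1 (R 4.3.3) with lmFit and eBayes, 2 against 2 arrays, with 2 residual and 2.89 prior degrees of freedom and Benjamini-Hochberg adjustment over 26408 probes. The smallest two-sided p of an exact permutation test here is 0.33. A gene was counted by its brightest probe. A group mean under the 25th percentile (6.58 on log2, an intensity of 95.8) was set to that level and the fold written as "at least"; with both groups under it no fold was given. The fit was run on simulated data with few planted changes, as many up as down, and the same spread on all arrays. That setting differs from these data, so it does not test the fit under widespread, uneven changes or unequal spread. Members and lists were chosen with earlier results of these data known. The naming rule gave all 4 values for 8 fixed genes and for the 6 largest rises and falls among called members, and at most 4 called neighbours or FOXO targets each way that changed at least 2-fold; the remaining members' values were added beside them. The number of arrays limits the precision.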

Additional observations from a re-analysis of the deposited data

How the results depend on the processing

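Probes called numbered 11838 (7164 higher, 4674 lower) and members called 15 (9 higher, 6 lower). With at least a 2-fold change added, 5806 probes passed (2863 higher, 2943 lower). In the deposited values 6687 probes passed (2396 higher, 4291 lower) and 9 members (3 higher, 6 lower). After centring, 17 members were higher. Leaving out each array in turn, with normalization repeated and the lone array's spread taken from the other group, gave 3346 to 10787 probes (1218 to 6545 higher, 2128 to 4242 lower) and 6 to 18 members (4 to 11 higher, 1 to 7 lower). The low ends came without berberine replicate 1 or 2, with 3710 and 3346 probes.

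Signs turned only at values not called in the first place. After centring these were Insr (0.34), Irs2 (0.29) and the brighter Pik3r3 probe (0.031), and after 75th percentile scaling Insr (0.080) and Irs2 (0.029). In the deposited values they were Grb10 (-0.16), Inpp5d (-0.29) and the dimmer Pik3ca probe (-0.17). With probes averaged, Pik3r3 was at 0.069 and Pdpk1 at -1.29, the latter called. Leaving out 1 array turned Pik3r2 (range over arrays left out -0.029 to 0.18), Foxo3 (-0.022 to 0.73) and the dimmer Pik3ca probe (-0.015 to 0.35), lowest without control replicate 1, and Shc1 (-0.10 to 0.46), lowest without control replicate 2. It also turned Gsk3a (-0.017 to 0.58) and Gsk3b (-0.40 to 0.99), lowest without berberine replicate 1, and Inpp5d (-0.0081 to 0.0091). The cause was not tested.

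The sample titles do not say whether samples with the same replicate number were paired. No shared deviation was seen between them (correlation of same-numbered deviations 0.0035). The value for crossed numbers, -0.0035, is only its mirror image with so few arrays, so the correlation cannot decide whether samples were paired. With the replicate block, 12760 probes and 17 of 29 members were called, adding Pdpk1 and Pik3r3 at their brightest probes. Of all 17734 genes, 5736 were then higher and 3413 lower. The block gave all member probes nearly the same SE (0.19 to 0.24, against 0.12 to 0.43 in the main fit). Its calls thus rest mostly on a spread pooled over probes and little on each probe's own. Log2(value + 16), an intensity trend with robust prior and leaving out dim probes gave 15, 16 and 16 members. Of all genes (17734, 17734 and 15287), 5498, 5714 and 5579 were higher and 3272, 3338 and 3255 lower. After centring, 21 of 39 neighbours were higher (44.3% of all genes) and 3 of 22 FOXO targets lower (12.8%).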
